A study of Mus musculus with 6 samples.

Results

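The nuclear genes for subunits of respiratory complexes II to V, together with the gene for cytochrome c, were examined in gastrocnemius muscle of Ogg1Tg mice against Control mice. Members were the entries whose symbol names a subunit of succinate dehydrogenase (Sdha to Sdhd), of complex III (Uqcr genes and Cyc1), of cytochrome c oxidase (Cox4 to Cox8 genes) or of ATP synthase (Atp5 genes), plus Cycs. Of 37315 entries, 50 were members: 4 of complex II, 9 of complex III, 1 for cytochrome c, 19 of complex IV and 17 of complex V. A further 6 entries with matching names were left out as pseudogenes by their names.

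Total RNA was sequenced from 3 Ogg1Tg and 3 Control males, 20 weeks of age, all on the C57BL/6J background, fed chow and given no other treatment. Ogg1Tg mice carry a transgene for human OGG1-1a, a DNA repair enzyme that removes oxidised guanine, joined to a signal that sends it into mitochondria and driven by a CMV/AG promoter. Neither the cells in which that promoter is active nor the number of founder lines is stated in the labels. Shared litters are not mentioned either, so the p-values measure the spread between these 6 mice.

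Complex II passes electrons from succinate to ubiquinone, complex III passes them on to cytochrome c, complex IV uses them to reduce oxygen, and complex V uses the resulting proton gradient to make ATP. Complex II is built of nuclear-encoded subunits alone, while complexes III, IV and V combine nuclear subunits with a few encoded in mitochondrial DNA. Several small subunits of complex IV have a form found mainly in heart and skeletal muscle and a form found in most tissues: Cox6a2 and Cox6a1, Cox7a1 and Cox7a2, and Cox8b and Cox8a. The first of each pair is the muscle form.

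Depth was 45189860 to 56126407 reads in named genes per library, of which the members held 0.574% to 0.756%. Values are reads divided by 1 scaling factor per library and are called scaled reads below; 1 read was worth 1.01 to 1.40 of them. Muscle genes dominated every library, with Ttn taking 14.2% to 17.2% of all scaled reads. The mouse Ogg1 entry had 176, 201 and 193 scaled reads in Ogg1Tg mice, against 154, 225 and 193 in Control mice, and does not measure the human transgene. Ogg1Tg replicate 3 stood apart: its Spearman correlation with the other libraries was 0.946 to 0.953, against 0.975 to 0.983 among the other 5. The 12 lymphocyte markers summed to 18199.8 scaled reads in it, against 239 and 293 in the other Ogg1Tg libraries and 244 to 368 in Control libraries. Its 10 adipocyte markers summed to 14501 scaled reads, against 4187 to 5538 in the other 5 libraries. Its 10 macrophage markers summed to 10365, against 3649 to 7079 in the other 5, and its median over 16 muscle fibre genes was 0.76 log2 units below the Control mean. Values without this mouse are given beside the results; the part these markers play in them was not tested. In bulk tissue, fewer cells of a type and less RNA per cell cannot be told apart.

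The balance of muscle and ubiquitous isoforms of complex IV separated the groups in 2 of 3 pairs, although 3 against 3 mice cannot give an exact p below 0.1. Among all genes taken singly, 7.03% lay higher and 11.3% lower in Ogg1Tg mice without overlap. For the ratio of each gene to Cox4i1, another gene of complex IV, the shares were 10.1% and 2.3%. Cox4i1 is itself a member and was low in Ogg1Tg replicate 3, so these shares are not a like background for ratios between members. No such share was computed over other pairs of genes. The ratio of Cox8b to Cox8a lay lower in every Ogg1Tg mouse than in every Control mouse, and so did the ratio of Cox7a1 to Cox7a2. The mean ratio of Cox6a2 to Cox6a1 was higher in Ogg1Tg mice and the groups overlapped, because Ogg1Tg replicate 3 lay below Control replicate 3. A ratio within 1 library is not changed by multiplying that library by a factor, apart from the pseudocount of 1 used on the log2 scale. Quantile normalization, which reshapes each library, can change it.

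Promoter windows from 250 bases before to 50 bases after the annotated start, from RefSeq on GRCm38.p6, were found for 35 of the 50 members. The windows of the Cox8b, Cox8a, Cox7a1 and Cox7a2 genes are shown because these are the pairs whose ratios separated the groups. They lie at chr7:140900397-140900696 (minus strand), chr19:7217567-7217866 (minus strand), chr7:30183921-30184220 (plus strand) and chr9:79759804-79760103 (minus strand). Each is printed 5′ to 3′ on the strand of its gene, with matches to the searched motifs in capitals.
Cox8b: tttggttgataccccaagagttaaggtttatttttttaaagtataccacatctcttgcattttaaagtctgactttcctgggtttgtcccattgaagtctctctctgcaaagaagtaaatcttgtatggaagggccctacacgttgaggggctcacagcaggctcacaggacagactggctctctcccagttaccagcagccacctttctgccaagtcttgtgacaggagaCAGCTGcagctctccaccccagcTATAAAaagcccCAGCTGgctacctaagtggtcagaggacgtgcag
Cox8a: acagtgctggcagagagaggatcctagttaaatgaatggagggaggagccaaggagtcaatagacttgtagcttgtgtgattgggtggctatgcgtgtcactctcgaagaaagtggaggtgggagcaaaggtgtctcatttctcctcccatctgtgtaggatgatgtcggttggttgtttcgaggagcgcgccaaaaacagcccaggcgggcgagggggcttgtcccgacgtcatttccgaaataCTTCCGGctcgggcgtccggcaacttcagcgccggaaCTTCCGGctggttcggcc
Cox7a1: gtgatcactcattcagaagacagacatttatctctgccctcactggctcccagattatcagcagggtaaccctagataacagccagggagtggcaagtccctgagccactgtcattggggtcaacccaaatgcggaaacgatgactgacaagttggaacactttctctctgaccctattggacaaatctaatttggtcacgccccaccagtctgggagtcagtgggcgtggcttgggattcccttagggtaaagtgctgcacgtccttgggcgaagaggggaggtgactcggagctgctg
Cox7a2: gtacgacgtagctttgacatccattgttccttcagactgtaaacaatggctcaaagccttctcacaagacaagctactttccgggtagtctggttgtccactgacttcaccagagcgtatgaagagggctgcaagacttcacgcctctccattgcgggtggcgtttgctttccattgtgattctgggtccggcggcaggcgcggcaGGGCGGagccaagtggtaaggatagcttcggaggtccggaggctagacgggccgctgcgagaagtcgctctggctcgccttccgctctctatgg

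The 9 motifs searched on both strands were NRF1 (GCGCA and GCGC with 1 base between them), ETS (CCGGAAG), YY1 (AAGATGGCG), Sp1 (GGGCGG), ERR (TCAAGGTCA), MEF2 (CTA and TAG with 4 bases between them), a muscle E-box (CAGCTG), the core promoter element known as the TATA box (TATAAA) and a C/EBP-ATF element (TGATGNAA). No matches overlapped in the windows printed. The Cox8b window held the E-box on both sides of the TATA letters, with all 3 matches within 21 bases of the annotated start. The first E-box lay 19 to 14 bases before that start. The TATA letters lay 4 to 9 bases after it and the second E-box 16 to 21 bases after it. The Cox8a window held the ETS letters at 2 places, and both appear above as their reverse complement, CTTCCGG. Cox7a2 had 1 Sp1 match, and the Cox7a1 window had none of the 9 motifs. Over all 32841 promoter windows, the E-box was present in 16.3%, the TATA box in 13.6%, the ETS letters in 8.86% and the Sp1 letters in 35.7%. Among the 35 members with a window, 12 held the ETS letters and 10 held the NRF1 letters, which were present in 4.60% of all windows. The Sp1 letters were in 13 of the 35, TATA in 3, the E-box in 2 (Cox8b and Atp5b), and YY1 in 2 and ERR in 2, against 1.40% and 0.423% of all windows for YY1 and ERR. MEF2 was in 1 (3.69% of all windows) and C/EBP-ATF in 0 (3.97%). These are matches of letters and were not tested for use by any factor.

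Cox8b, the muscle form of one of the smallest subunits of complex IV, had 4389.8, 3963 and 3176 scaled reads in Ogg1Tg mice, against 5272, 5377 and 5975 in Control mice (mm10, chr7:140898945-140900446). Every Ogg1Tg value lay below every Control value. Its log2 fold change was -0.54 (SE 0.15; -0.41 without Ogg1Tg replicate 3), with an adjusted p of 0.21 by limma with Benjamini-Hochberg adjustment over all genes. Cox8a, the ubiquitous form, had 1173, 736 and 1037 scaled reads in Ogg1Tg mice, against 702, 679.8 and 711 in Control mice (chr19:7215153-7217616). The groups again did not overlap, here with Ogg1Tg mice above, and Ogg1Tg replicate 2 lay closest to the Control mice. The log2 fold change was 0.47 (SE 0.18; 0.41 without Ogg1Tg replicate 3; limma adjusted p = 0.38). Per kilobase of transcript, there were 5.72, 8.23 and 4.68 Cox8b reads per Cox8a read in Ogg1Tg mice, against 11.5, 12.1 and 12.8 in Control mice. The log2 ratio was 1.98 ± 0.41 in Ogg1Tg mice and 2.99 ± 0.08 in Control mice (SD, n = 3 each), a difference of -1.004, or 0.498 times the Control ratio. The two-sided exact permutation p was 0.1, the smallest that 3 against 3 mice allow, and 0.15 adjusted over the 3 pairs compared. The difference was -0.82 without Ogg1Tg replicate 3.

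Cox7a1, the muscle form of a small subunit at the outer face of complex IV, had 2564, 1651 and 1352 scaled reads in Ogg1Tg mice, against 2653, 2898 and 3044 in Control mice (chr7:30184144-30186078). Ogg1Tg replicate 1 lay just under the lowest Control mouse and the other two lay well below. Its log2 fold change was -0.68 (SE 0.21; -0.48 without Ogg1Tg replicate 3; limma adjusted p = 0.29). Its partner Cox7a2 had 3702, 2885 and 2053 scaled reads in Ogg1Tg mice, against 2961, 3259 and 2392 in Control mice (chr9:79755361-79759878). The Ogg1Tg values spanned those of the Control mice on both sides. The log2 fold change of Cox7a2 was -0.02 (SE 0.22; 0.20 without Ogg1Tg replicate 3; limma adjusted p = 0.98), and its sign turned under several other scalings. Per kilobase, the ratio of Cox7a1 to Cox7a2 was 1.04, 0.859 and 0.989 in Ogg1Tg mice, against 1.35, 1.33 and 1.91 in Control mice. On the log2 scale of scaled reads the ratio was -0.65 ± 0.14 in Ogg1Tg mice and 0.01 ± 0.30 in Control mice (SD, n = 3 each). The difference was -0.65 (two-sided exact permutation p = 0.1, adjusted 0.15), and -0.67 without Ogg1Tg replicate 3.

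Cox6a2, the muscle form of a regulatory subunit of complex IV, ran the other way from the muscle forms of both other pairs. It had 18205, 16425 and 14449 scaled reads in Ogg1Tg mice, against 10137, 11850.5 and 12243 in Control mice (chr7:128205435-128206387). All Ogg1Tg mice lay above all Control mice, including Ogg1Tg replicate 3, in which most members were at their lowest. The means were 16359.5 ± 1879 in Ogg1Tg mice and 11410.2 ± 1119.8 in Control mice (SD, n = 3 each), a log2 fold change of 0.52 (SE 0.15; 95% interval 0.17 to 0.86). By limma over all genes its adjusted p was 0.25 and by edgeR 0.15, while DESeq2 on recovered reads gave 0.0028. With limma it also passed after quantile normalization (adjusted p = 0.042, among 0.583% of all genes called higher) and without Ogg1Tg replicate 3 (adjusted p = 0.023). It did not pass without that mouse when genes were filtered on all 6 libraries (limma adjusted p = 0.16). Nor did it pass with any other single mouse left out (limma adjusted p from 0.28 to 0.67). The limma adjusted p was 0.49 without the variance trend and 0.39 with a replicate block. Its exons overlap those of Itgad on the opposite strand, and Itgad had 95.6 to 152 scaled reads in Ogg1Tg mice and 75.7 to 99.8 in Control mice.

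Cox6a1, the ubiquitous partner, had 549.8, 435 and 609 scaled reads in Ogg1Tg mice, against 506, 557 and 431 in Control mice (chr5:115345642-115348981). The groups overlapped, and the log2 fold change of 0.09 (limma adjusted p = 0.88) was -0.02 without Ogg1Tg replicate 3. There were 27.8, 31.7 and 19.9 Cox6a2 reads per Cox6a1 read, both per kilobase, in Ogg1Tg mice, against 16.8, 17.9 and 23.9 in Control mice. The overlap came from Ogg1Tg replicate 3 lying below Control replicate 3, though above the other Control mice. The other Ogg1Tg mice lay above all Control mice. The log2 ratio of scaled reads was 4.95 ± 0.34 in Ogg1Tg mice and 4.52 ± 0.27 in Control mice (SD, n = 3 each). Its difference of 0.43 had a two-sided exact permutation p of 0.2 (0.2 after adjustment). The difference was 0.62 without Ogg1Tg replicate 3 and 0.58 without Control replicate 3. After quantile normalization the difference was 0.67, with an exact permutation p of 0.1.

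**Figure D1:**
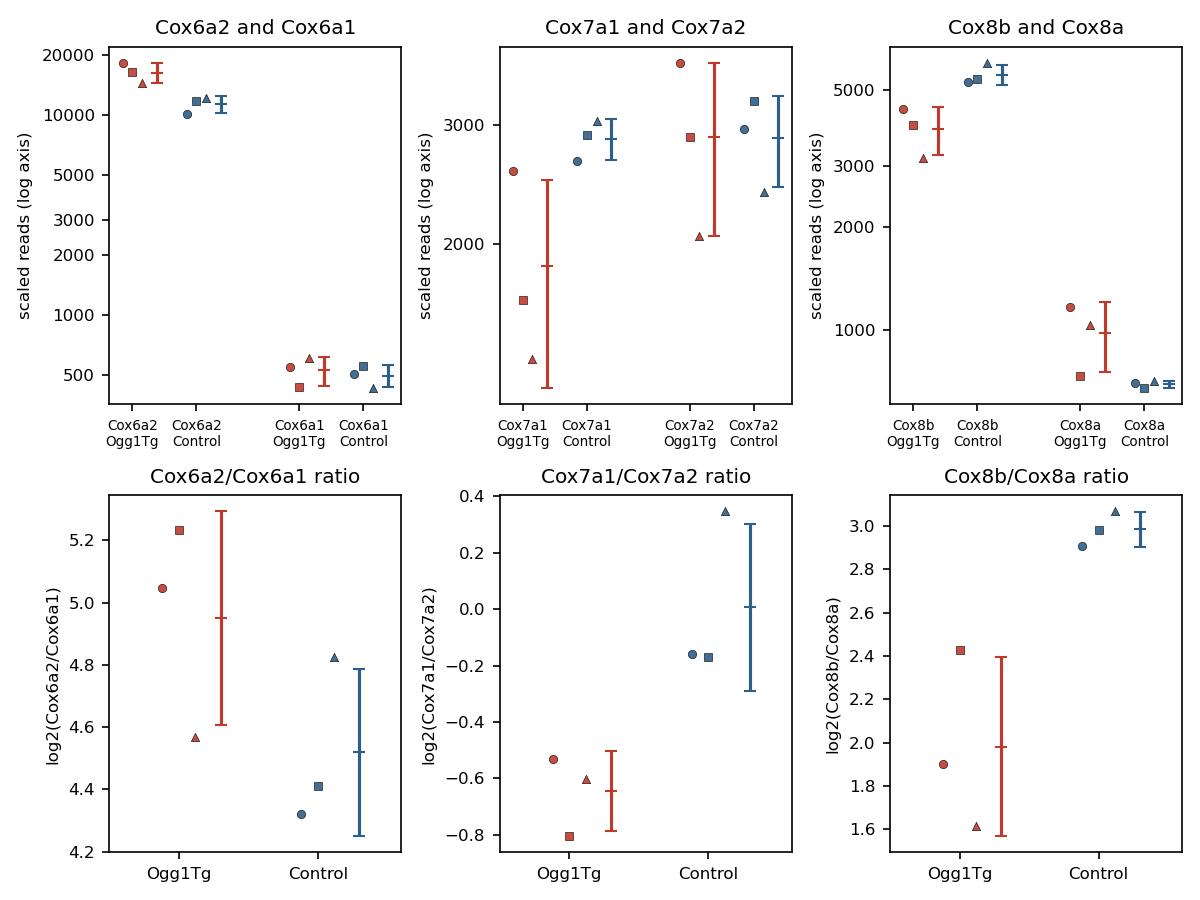
Scaled reads of the 6 paired complex IV isoforms and the log2 ratio of muscle to ubiquitous form within each library, Ogg1Tg mice in red and Control mice in blue; circles, squares and triangles are replicates 1, 2 and 3, and bars give the mean and SD. The Cox8b to Cox8a and Cox7a1 to Cox7a2 ratios of the 3 Ogg1Tg mice all lie below those of the 3 Control mice, while the Cox6a2 to Cox6a1 ratios overlap.

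Each of the 6 isoforms was also set against Cox4i1, the largest nuclear subunit of complex IV, in the same library; this measure was added after the data had been seen. The log2 ratio of Cox6a2 to Cox4i1 was 0.40, 0.60 and 0.97 in Ogg1Tg mice, against -0.23, -0.23 and 0.02 in Control mice, a difference of 0.81. For Cox8a the difference was 0.75 and for Cox7a2 it was 0.26, with no overlap between the groups in either. Cox7a1 was lower relative to Cox4i1, by a difference of -0.39, again with no overlap. The difference was -0.25 for Cox8b and 0.37 for Cox6a1, and in both the groups overlapped. Without Ogg1Tg replicate 3 the differences were 0.65 for Cox6a2, 0.46 for Cox8a, 0.24 for Cox7a2, -0.43 for Cox7a1, -0.36 for Cox8b and 0.03 for Cox6a1. Two-sided exact permutation p-values were 0.1 for the 4 ratios without overlap, 0.2 for Cox8b and 0.4 for Cox6a1, or 0.15, 0.24 and 0.4 adjusted over the 6 ratios. Against Cox4i1, 3 of 47 members lay above without overlap (10.1% of all genes) and 6 of 47 lay below without overlap (2.3% of all genes). Those 6 were Uqcrfs1, Uqcrc1, Cycs, Cox6c, Atp5a1 and Cox7a1.

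Most markers listed for slow, oxidative fibres also had higher means in Ogg1Tg mice, 9 of 10 with a log2 fold change above 0; Myoz2 was at -0.11. The median of 10 such markers was 0.84, 1.09 and 0.68 log2 units above the Control mean in Ogg1Tg replicates 1 to 3, against -0.72, 0.19 and 0.54 in Control replicates 1 to 3. They summed to 122407, 156572 and 99352 scaled reads in Ogg1Tg mice, against 37567, 81841 and 94374 in Control mice, and by limma 0 of the 10 passed after adjustment and 6 had an unadjusted p under 0.05. The slow myosin gene Myh7 had 57593, 79545 and 50855 scaled reads in Ogg1Tg mice, against 10585, 35642 and 35632 in Control mice (log2 fold change 1.37, limma adjusted p = 0.30). Of the 12 markers of fast fibres, 12 lay below 0; their median was -0.35, and -0.09 without Ogg1Tg replicate 3. Their median difference from the Control mean was -0.27, 0.16 and -0.87 in Ogg1Tg replicates 1 to 3. In Control replicates 1 to 3 it was 0.26, -0.04 and -0.20. By limma 0 of the 12 had an unadjusted p under 0.05. All 16 genes of the muscle fibre list, which shares genes with the fast list, lay below 0 too. Mb, the myoglobin gene, which is known to be high in oxidative fibres and stood in the muscle fibre list, had 23409, 14899.9 and 6392 scaled reads in Ogg1Tg mice, against 26217, 42743 and 39151 in Control mice. It ran opposite to the slow list, with no overlap (log2 fold change -1.43; -0.92 without Ogg1Tg replicate 3; limma adjusted p = 0.25). The part of fibre makeup in the isoform ratios was not tested.

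Across all complexes, most members lay somewhat lower in Ogg1Tg mice, and none passed the test. Of the 48 members with a mean of at least 1 scaled read, 43 had a log2 fold change below 0, where 52.8% of the 23312 genes tested did. The median over these members was -0.29, against -0.02 over all genes. By limma 0 of 48 members passed at an adjusted p under 0.05 (0.395% of all genes passed as higher and 0.15% as lower). At an unadjusted p under 0.05 there were 2 members higher (4.24% of all genes) and 10 lower (6.78%). By edgeR 0 members passed (0.425% of genes higher, 0.107% lower). By DESeq2 2 did: Cox6a2 higher, among 1.56% of genes, and Cox8b lower, among 1.1% (adjusted p = 0.049). The limma adjusted p of the members ran from 0.21 to 0.98. The 7 tested erythroid markers lay in the same direction as the members, with 7 of 7 below 0 and a median of -0.58 (-0.51 without Ogg1Tg replicate 3). Summed over the list they came to 634, 719.7 and 580.4 scaled reads in Ogg1Tg mice, against 874, 967 and 800.1 in Control mice, without overlap, and their part in the members' shift was not tested.

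Members whose groups did not overlap numbered 2 higher in Ogg1Tg mice, Cox6a2 and Cox8a (7.03% of all genes), and 13 lower (11.3% of all genes). The 13 were Sdha, Sdhd, Uqcrc1, Uqcrfs1, Uqcrh, Cycs, Cox6b2, Cox6c, Cox6c2, Cox7a1, Cox8b, Atp5a1 and Atp5l. The Ogg1Tg mice did not share this shift evenly. The median of the members' log2 differences from the Control mean was 0.07, -0.21 and -0.70 in Ogg1Tg replicates 1 to 3, against -0.03, 0.08 and -0.04 in Control replicates 1 to 3. Replicate 3 was the lowest of the 6 mice in the deposited scaling, and replicate 1 lay above the Control mean. Named genes of replicate 3 totalled 45456582 scaled reads, against 62344492 to 72209954 in the other libraries. The members held 0.756%, 0.574% and 0.612% of reads in named genes in Ogg1Tg replicates 1 to 3. In Control replicates 1 to 3 they held 0.608%, 0.711% and 0.672%. By this share Ogg1Tg replicate 3 lay inside the Control range and Ogg1Tg replicate 2 was lowest. Without Ogg1Tg replicate 3 the members' median log2 fold change was -0.08, and 36 of 48 members lay below 0 (55.5% of all genes). In that comparison Cox6a2 was the 1 member that passed limma (1.86% of all genes). At an unadjusted p under 0.05 there were 9 members lower (8.15% of all genes) and 2 higher (5.72%). Without overlap, 13 members lay below (17.1%) and 4 above (13.1%).

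**Figure D2:**
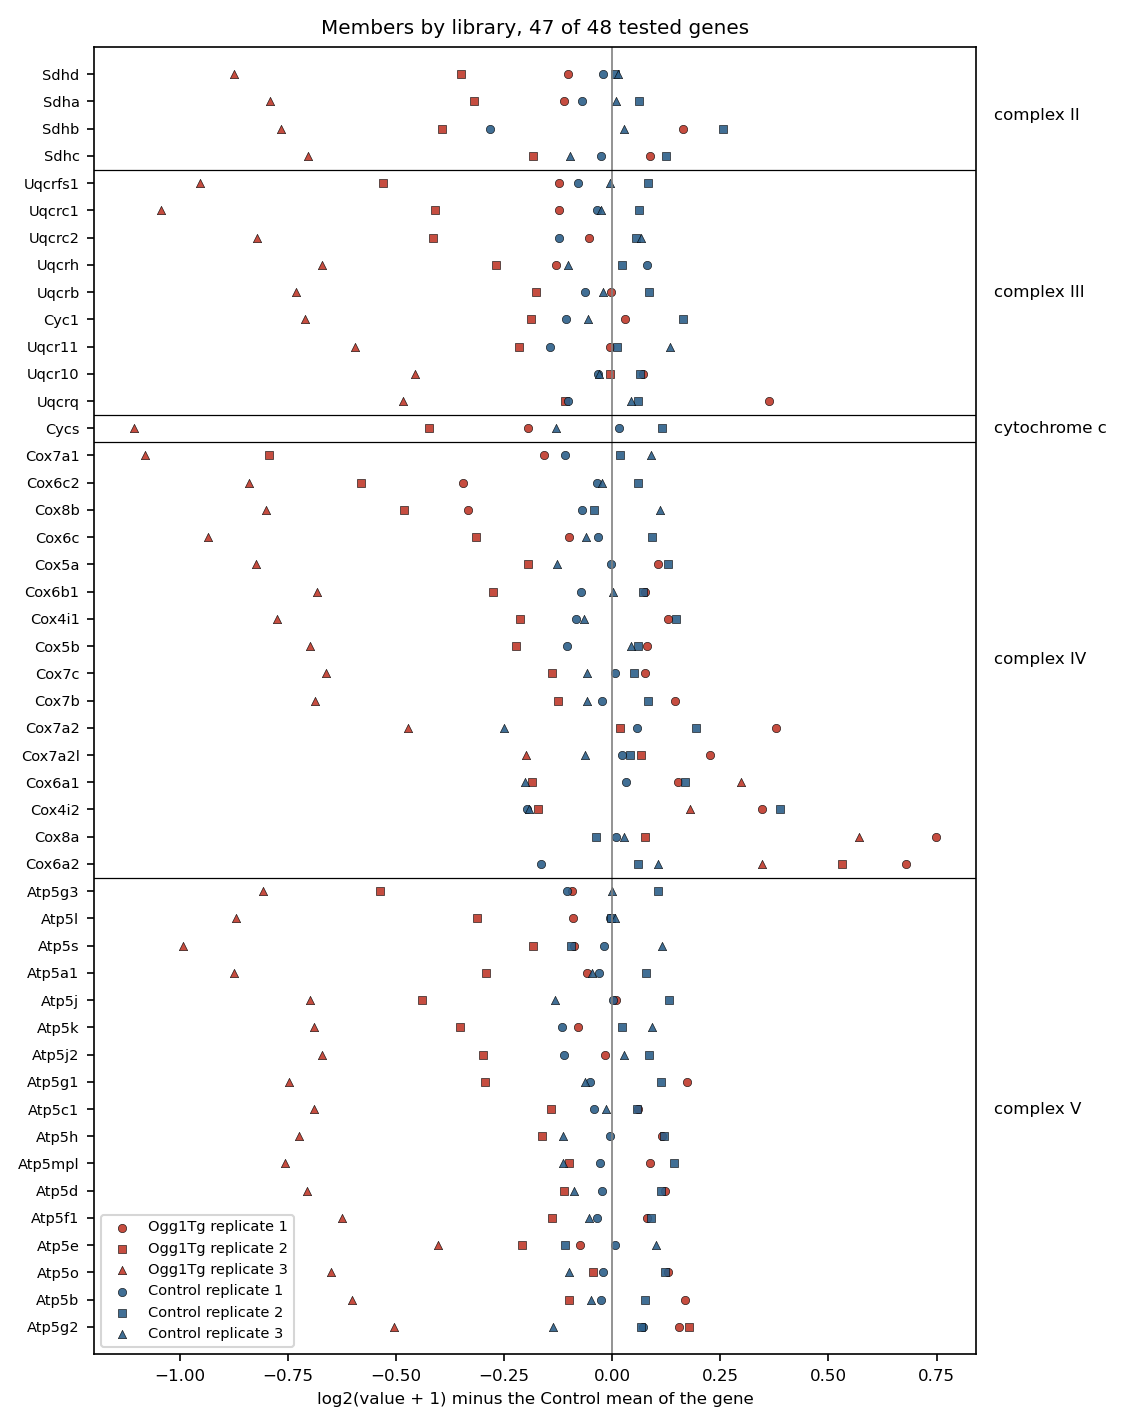
Log2 difference of each of 47 members from its Control mean in every library, by complex, Ogg1Tg mice in red and Control mice in blue with circles, squares and triangles for replicates 1, 2 and 3; Cox6b2 is left out for scale. In the deposited scaling, Ogg1Tg replicate 3 lies below the other mice for most genes, with Cox6a2, Cox8a, Cox6a1 and Cox4i2 as exceptions above 0.

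Highly expressed genes as a whole lay lower as well. Among the 5528 genes with a mean of at least 1000 scaled reads, 71.6% had a log2 fold change below 0 and the median was -0.13. Of the 42 members at that level, 40 were below 0. When libraries were rescaled to equal totals, a step added after the data had been seen, the members' median was -0.04 and that of all genes 0.22. Then 32 of 48 members lay below 0, against 28.7% of all genes, and 3 lay below without overlap (4.7%) and 3 above (15.2%). After a shift of each library to its muscle fibre genes, also added later, the members' median was -0.02 and that of all genes 0.25, and 28 of 48 members lay below 0. Such rescaling moves a library's genes together, so it changes the distance of the members' median from 0 and bears little on their distance from other genes. Quantile normalization, which reshapes each library, brought the members closer to other genes. Under it the members' median was -0.14 and that of all genes -0.02, and 36 of 48 members lay below 0.

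**Figure D3:**
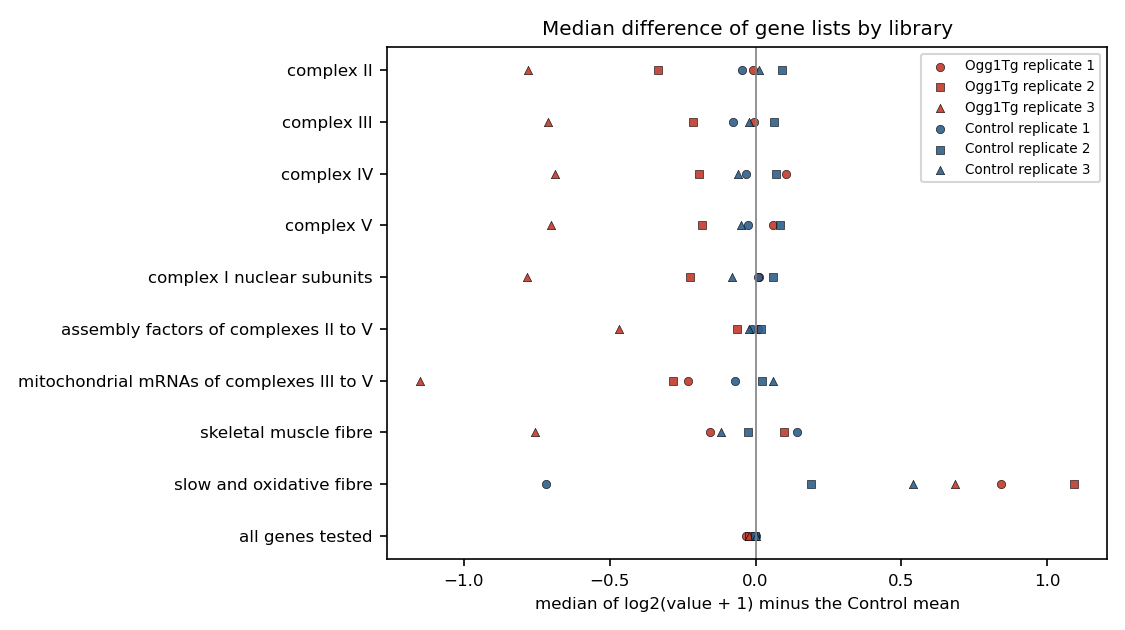
Median log2 difference from the Control mean over the tested genes of each set in every library, Ogg1Tg mice in red and Control mice in blue, with circles, squares and triangles for replicates 1, 2 and 3. Complexes II to V and complex I run close together, with Ogg1Tg replicate 3 between -0.69 and -0.78 and Ogg1Tg replicate 1 near 0.

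The 4 complexes had close medians: -0.37 in complex II, -0.30 in complex III, -0.28 in complex IV and -0.26 in complex V. Without Ogg1Tg replicate 3 these were -0.17, -0.11, -0.04 and -0.06. In the deposited scaling every tested member of complexes II, III and V had a log2 fold change below 0, in 4 of 4, 9 of 9 and 17 of 17 genes, while 5 of the 17 tested members of complex IV lay above 0. Those 5 were Cox6a2, Cox8a, Cox4i2, Cox6a1 and Cox7a2l.

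Complex II had the lowest median of the 4 in the deposited scaling; after quantile normalization complex III (-0.19) and complex V (-0.14) lay below it (-0.13). Sdha, the flavoprotein that oxidises succinate, had 26968, 23353 and 16845 scaled reads in Ogg1Tg mice, against 27777, 30399.7 and 29299.5 in Control mice. The groups did not overlap, but Ogg1Tg replicate 1 lay next to the lowest Control mouse (log2 fold change -0.41, SE 0.20, limma adjusted p = 0.50). Sdhd, a membrane anchor, had 5651, 4758 and 3306 scaled reads in Ogg1Tg mice, against 5976, 6090.3 and 6121 in Control mice. It too showed no overlap, and the Control mice were close to each other (log2 fold change -0.44, limma adjusted p = 0.43). Sdhb, the iron-sulfur subunit, had 11384, 7746 and 5981 scaled reads in Ogg1Tg mice, against 8366, 12140.0 and 10356 in Control mice. Sdhc, the other membrane anchor, had 5184, 4299 and 2998 in Ogg1Tg mice, against 4793, 5317 and 4562 in Control mice. In both the groups overlapped, with log2 fold changes of -0.33 for Sdhb and -0.27 for Sdhc (limma adjusted p = 0.65 for each). Without Ogg1Tg replicate 3 the log2 fold change was -0.22 for Sdha, -0.23 for Sdhd, -0.12 for Sdhb and -0.05 for Sdhc.

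In complex III the lowest log2 fold changes were those of Uqcrfs1 and Uqcrc1. Uqcrfs1, the Rieske iron-sulfur protein, had 8439, 6363 and 4749.9 scaled reads in Ogg1Tg mice, against 8710.2, 9745 and 9161 in Control mice. Its log2 fold change was -0.54 (SE 0.20; -0.33 without Ogg1Tg replicate 3; limma adjusted p = 0.37). Uqcrc1, a core protein, had 17224, 14127 and 9095 scaled reads in Ogg1Tg mice, against 18296, 19575 and 18421 in Control mice, with a log2 fold change of -0.53 (SE 0.22; -0.27 without Ogg1Tg replicate 3; limma adjusted p = 0.44). For both genes all Ogg1Tg mice lay below all Control mice, and the value in Ogg1Tg replicate 1 was near the Control range. Uqcrc2, the other core protein, had 12844, 10005 and 7541 scaled reads in Ogg1Tg mice, against 12246, 13852 and 13968 in Control mice. There Ogg1Tg replicate 1 was within the Control range (log2 fold change -0.43; -0.23 without Ogg1Tg replicate 3; limma adjusted p = 0.47). Cyc1, cytochrome c1, had 5978, 5147 and 3579 scaled reads in Ogg1Tg mice, against 5440.3, 6569 and 5633 in Control mice. The groups overlapped (log2 fold change -0.29; -0.08 without Ogg1Tg replicate 3; limma adjusted p = 0.62).

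Among the small subunits of complex III, Uqcrh, the hinge protein that contacts cytochrome c1, had 2744, 2491 and 1884 scaled reads in Ogg1Tg mice, against 3174, 3048 and 2798 in Control mice. No Ogg1Tg value reached the Control range (log2 fold change -0.36; -0.20 without Ogg1Tg replicate 3; limma adjusted p = 0.45). Uqcrb and Uqcrq overlapped between groups. Uqcrb had 4957, 4400.0 and 2991 scaled reads in Ogg1Tg mice, against 4754, 5272 and 4893 in Control mice. Uqcrq had 4819.7, 3474 and 2679.7 in Ogg1Tg mice, against 3492, 3905 and 3863 in Control mice. The log2 fold change of Uqcrb was -0.30, and -0.09 without Ogg1Tg replicate 3; that of Uqcrq was -0.08, and 0.13 without it. Uqcr10 and Uqcr11, 2 further small subunits, had log2 fold changes of -0.13 and -0.27 with overlapping groups, and 0.03 and -0.11 without that mouse.

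Cycs, which encodes the carrier of electrons between complexes III and IV, had 13115, 11193 and 6974 scaled reads in Ogg1Tg mice, against 15161, 16245 and 13718 in Control mice. All Ogg1Tg mice lay below all Control mice. Its log2 fold change was -0.57 (SE 0.23; -0.31 without Ogg1Tg replicate 3; limma adjusted p = 0.39). As a log2 ratio to Cox4i1 it was -0.07, 0.04 and -0.08 in Ogg1Tg mice, against 0.35, 0.22 and 0.19 in Control mice, so the separation was present within libraries as well.

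Beyond the paired isoforms, complex IV varied by gene. Cox4i1 had 13764, 10850.5 and 7352 scaled reads in Ogg1Tg mice, against 11886, 13943 and 12037 in Control mice, with Ogg1Tg replicate 2 below and replicate 1 inside the Control range (log2 fold change -0.29; -0.04 without Ogg1Tg replicate 3; limma adjusted p = 0.67). Cox4i2, the alternative form of that subunit known from lung, was low: 61.1, 42.3 and 54.3 scaled reads in Ogg1Tg mice, against 41.6, 62.9 and 41.8 in Control mice, with overlap (log2 fold change 0.12; 0.09 without Ogg1Tg replicate 3). Cox6c had 10008, 8619 and 5612 scaled reads in Ogg1Tg mice, against 10489, 11432 and 10293 in Control mice, with no overlap (log2 fold change -0.45; -0.21 without Ogg1Tg replicate 3; limma adjusted p = 0.47). Cox6c2 also showed no overlap, at 301, 255 and 213 scaled reads in Ogg1Tg mice, against 373, 399 and 376 in Control mice (log2 fold change -0.59; -0.46 without Ogg1Tg replicate 3; limma adjusted p = 0.26). GENCODE M21 annotates Cox6c2 as a processed pseudogene. Its 231 bases are 97.0% identical to Cox6c, so reads may be split between the pair and its value is uncertain.

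Cox6b1, which faces the intermembrane space, had 3687, 2887 and 2178 scaled reads in Ogg1Tg mice, against 3324, 3673 and 3498 in Control mice, with overlap (log2 fold change -0.29; -0.10 without Ogg1Tg replicate 3; limma adjusted p = 0.60). Cox6b2, known as the testis form, was counted in 7 reads over the 3 Ogg1Tg libraries and 30 reads over the 3 Control libraries. It had 1.11, 3.97 and 3.02 scaled reads in Ogg1Tg mice, against 15.3, 20.98 and 5.22 in Control mice (log2 fold change of value plus 1, -1.91; -2.01 without Ogg1Tg replicate 3; limma adjusted p = 0.37). Cox7b2 and Cox8c, also known from testis, had 0 reads in all 6 libraries, which allows up to 3 reads per library, or 3.02 to 4.196 scaled reads. Cox7a2l had 3157, 2828 and 2353 scaled reads in Ogg1Tg mice, against 2743, 2778 and 2584 in Control mice. Its log2 fold change was 0.03 (limma adjusted p = 0.95), -0.07 without Ogg1Tg replicate 1 and 0.15 without Ogg1Tg replicate 3. Cox5a, Cox5b, Cox7b and Cox7c had log2 fold changes of -0.30, -0.28, -0.22 and -0.24 with overlapping groups, and -0.07 to 0.01 without Ogg1Tg replicate 3.

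Complex V held the most abundant members. Atp5b, the catalytic beta subunit of the F1 head, had 88029, 73130.1 and 51695 scaled reads in Ogg1Tg mice, against 77015, 82562 and 75784 in Control mice. The Ogg1Tg values lay on both sides of the Control range (log2 fold change -0.18, SE 0.25, limma adjusted p = 0.82), and the log2 fold change was 0.03 without Ogg1Tg replicate 3. Atp5a1, the alpha subunit of the same head, had 59613, 50703 and 33871 scaled reads in Ogg1Tg mice, against 60778, 65506 and 60130.0 in Control mice. No Ogg1Tg value overlapped the Control range, but replicate 1 was next to it (log2 fold change -0.41; -0.18 without Ogg1Tg replicate 3; limma adjusted p = 0.59). Atp5c1, the gamma subunit of the rotating stalk, had 22772, 19797 and 13528 in Ogg1Tg mice, against 21206, 22720.4 and 21609 in Control mice, with overlap (log2 fold change -0.26; -0.04 without Ogg1Tg replicate 3).

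The c subunit of the membrane rotor comes from 3 genes that encode the same mature protein. Atp5g1 had 18128, 13115 and 9575 scaled reads in Ogg1Tg mice, against 15516, 17378 and 15389.8 in Control mice. Atp5g3 had 4946, 3639 and 3016 in Ogg1Tg mice, against 4909, 5679 and 5279.6 in Control mice. Atp5g2 had 2568, 2607 and 1626 in Ogg1Tg mice, against 2423, 2416 and 2096 in Control mice. All 3 overlapped between groups, and their log2 fold changes were -0.29, -0.48 (SE 0.18, limma adjusted p = 0.37) and -0.06. Without Ogg1Tg replicate 3 they were -0.06 for Atp5g1, -0.32 for Atp5g3 and 0.17 for Atp5g2. The log2 ratio of Atp5g2 to Atp5g3 was -0.94, -0.48 and -0.89 in Ogg1Tg mice, against -1.02, -1.23 and -1.33 in Control mice, so the groups did not overlap. No test was run on this ratio, which was picked out after its values were seen.

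Atp5l, the g subunit in the membrane, had 3628, 3110.1 and 2112 scaled reads in Ogg1Tg mice, against 3851, 3856 and 3882 in Control mice. The Control mice were almost equal and all Ogg1Tg mice lay below them (log2 fold change -0.42; -0.20 without Ogg1Tg replicate 3; limma adjusted p = 0.45). Atp5s, which encodes coupling factor B and was the least abundant member of complex V, had 552, 517 and 295 in Ogg1Tg mice, against 579.7, 549.7 and 636 in Control mice (log2 fold change -0.42; -0.14 without Ogg1Tg replicate 3; limma adjusted p = 0.56). Ogg1Tg replicate 1 was marginally inside the Control range. The other 9 members (Atp5d, Atp5e, Atp5f1, Atp5h, Atp5j, Atp5j2, Atp5k, Atp5mpl and Atp5o) all overlapped between groups. Their log2 fold changes ran from -0.19 for Atp5o, the subunit that gives the complex its oligomycin sensitivity, to -0.38 for Atp5j, the coupling factor of the peripheral stalk; without Ogg1Tg replicate 3 they ran from 0.04 for Atp5o to -0.22 for Atp5k, the e subunit. ATP synthase genes under other symbols lay alike: Usmg5 had a log2 fold change of -0.38 and the inhibitor Atpif1 of -0.22.

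Levels can be compared between genes only per kilobase of transcript. Atp5b stood highest, at 37031 ± 9533 scaled reads per kilobase in Ogg1Tg mice and 40946 ± 1885 in Control mice (SD, n = 3 each). In Ogg1Tg mice Cox6a2 followed at 24058 ± 2763, with Atp5a1 next among the genes named here at 18687 ± 5083, and their SDs overlapped. In Control mice Cox6a2 stood at 16779.7 ± 1647, well below Atp5a1 at 24159 ± 1141 and beside Cox6c and Cox4i1. Cox6c had 13333 ± 3708 scaled reads per kilobase in Ogg1Tg mice and 17719.8 ± 1005 in Control mice. Cox4i1 had 14113 ± 4252 in Ogg1Tg mice and 16718 ± 1519 in Control mice. In Control mice Cox6c, Cox6a2 and Cox4i1 did not differ beyond their SDs, while Atp5b lay beyond the SDs above Atp5a1. Cox8b had 10675 ± 1711 per kilobase in Ogg1Tg mice and 15393 ± 1053 in Control mice, and Cox8a had 1785 ± 407 in Ogg1Tg mice and 1268 ± 29.4 in Control mice. Uqcrc1 was the highest of complex III, at 8156 ± 2482 in Ogg1Tg mice and 11351 ± 427 in Control mice. The per-kilobase level of Atp5g1 is uncertain because its coding transcripts run from 596 to 4715 bases.

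**Figure D4:**
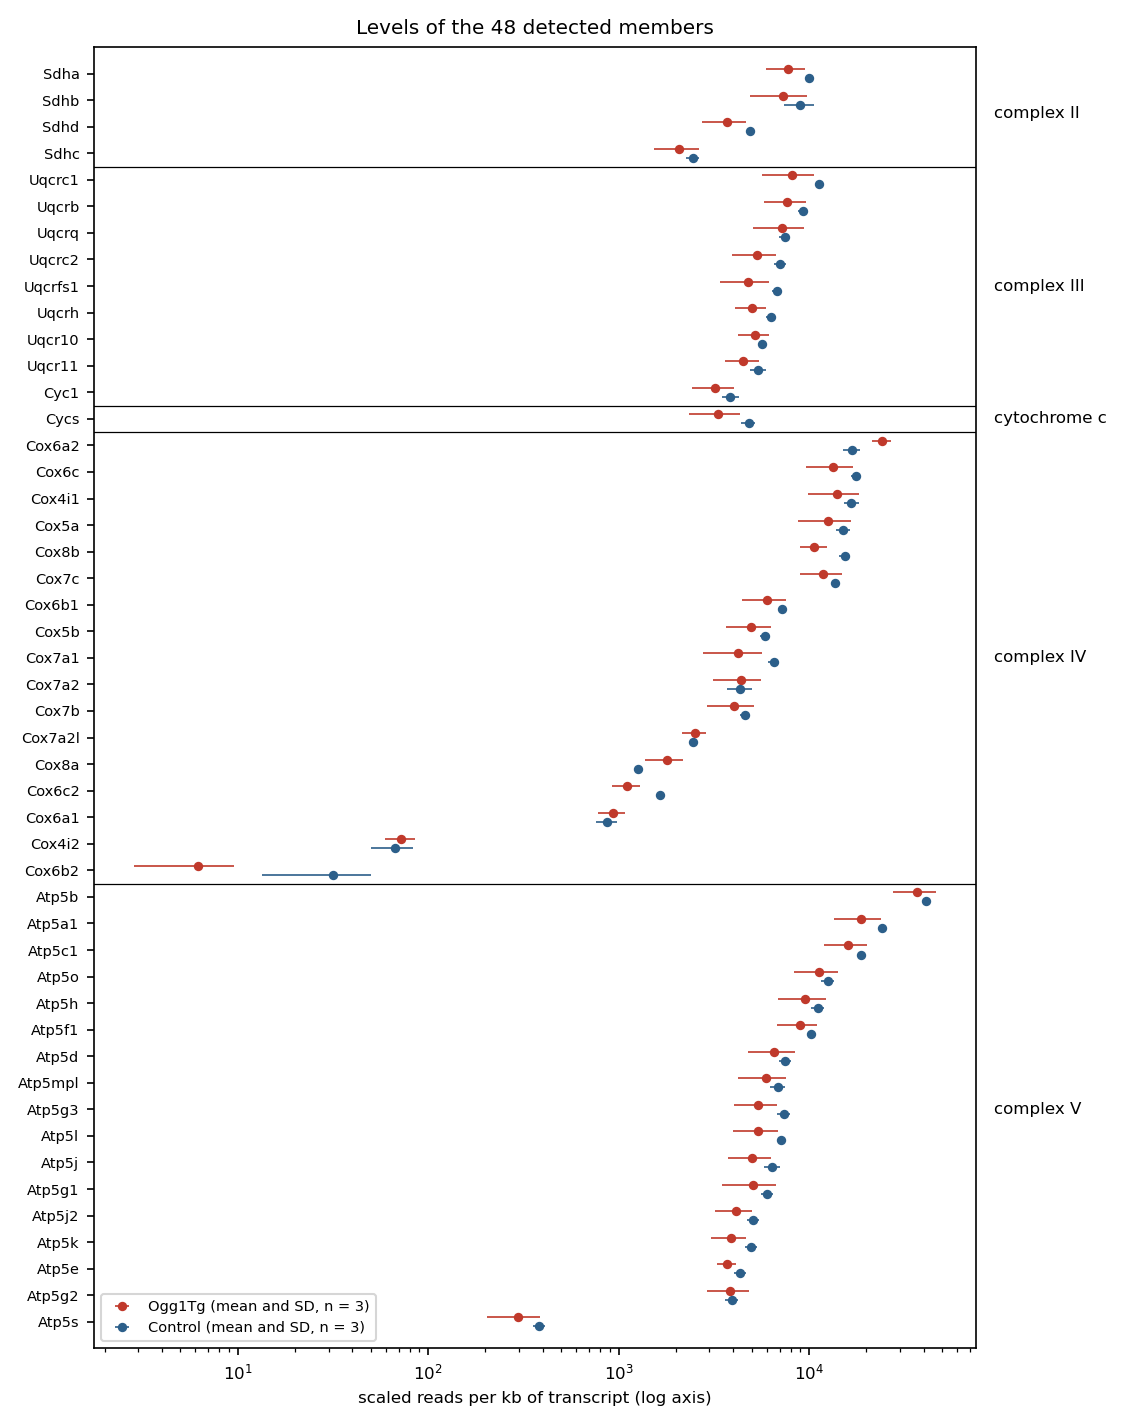
Mean level of each member in scaled reads per kilobase of transcript on a log axis, by complex, Ogg1Tg mice in red and Control mice in blue with SD over 3 mice each. Atp5b is the highest member in both groups, and Cox6a2 is the clearest case of a higher level in Ogg1Tg mice.

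Genes that work with the members lay in the same direction. All 36 nuclear subunits of complex I had a log2 fold change below 0, with a median of -0.33, and -0.09 without Ogg1Tg replicate 3. Of 37 tested assembly factors of complexes II to V, 33 lay below 0, with a median of -0.18; without Ogg1Tg replicate 3, 23 of 37 did, with a median of -0.04. Among them 1 lay higher without overlap (7.03% of all genes) and 7 lay lower (11.3%). Coa5, an assembly factor of complex IV, had 6217, 6526 and 4584 scaled reads in Ogg1Tg mice, against 7746, 7843 and 7821 in Control mice (log2 fold change -0.45; -0.29 without Ogg1Tg replicate 3; limma adjusted p = 0.33). Lrpprc, also high on this list, had 7037, 5704 and 4773 in Ogg1Tg mice, against 5713, 6481 and 6721 in Control mice, with overlap. Its log2 fold change was -0.13, and 0.01 without Ogg1Tg replicate 3. The 6 mitochondrial mRNAs of complexes III to V all lay below the Control range without overlap (11.3% of all genes), with a median log2 fold change of -0.57, and -0.29 without Ogg1Tg replicate 3. The mRNA of mt-Atp6, the membrane subunit of ATP synthase, had 565303, 595511 and 292953 in Ogg1Tg mice, against 735221, 766371 and 782298 in Control mice. By limma 0 genes of these 3 lists passed, where 0.545% of all genes did, with 5, 5 and 1 at an unadjusted p under 0.05 for complex I, assembly factors and mitochondrial mRNAs (4.24% of all genes higher and 6.78% lower).

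The counting may affect some members. No source used here states the strand setting, and 12 members share exon bases with a gene on the opposite strand, Cox6a2, Cox4i1, Cox6c, Uqcrc2, Uqcrb, Atp5a1, Atp5f1 and Atp5j among them. If the counting ignored strand, reads in the shared bases could not be told apart between the partners. The partners listed here had from 27.7 scaled reads (Pdzd9, beside Uqcrc2) to 4689.5 (Vps13b, beside Cox6c) in single libraries.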

How the data were processed

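Libraries of total RNA, purified on columns, were prepared by the NuGen Ovation Universal method, according to the labels' protocols. Trimmomatic, SAMtools, HTSeq and mm10 are named in the submitters' processing notes; aligner, annotation, strand setting and normalization are not stated by any source used here. The files are named FPKM, yet the signal that the authors deposited is counts divided by 1 factor per library, since 100% of values were whole multiples of 1 step within 0.01 of a read. In Ogg1Tg replicate 3 the step, 1.006, is near 1, so its recovery is less distinctive. The test had been planned for a normalized value, and limma on log2 values was retained. Columns of samples outside the series numbered 0.

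Unnamed entries (1824 of 37315; 2.38% to 3.53% of reads) were left out. Genes with a mean of at least 1 were tested as log2(value + 1), which understates changes of low genes, with limma 3.58.1 in R 4.3.3 (variance trend, two-sided, Benjamini-Hochberg over all genes, called at 0.05). Log2 ratios within a library used the same pseudocount, linear ratios none, and log2 ratios were compared by two-sided exact permutation tests. Lengths are median coding transcript lengths of GENCODE M21 (GRCm38, equivalent to mm10), where 50 of 50 members matched. Counting floors cover counting error only. No libraries agreed within sampling noise (smallest chi-square per gene 12.9).

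Members and lists were chosen with earlier results of these data known. Genes described singly were listed ones, the 3 highest per kilobase and the 3 largest changes per complex, and the others needed to account for every member. Alternatives were other pseudocounts, filters, scalings and variance settings, a replicate block, leaving out each mouse, and edgeR 4.0.16 and DESeq2 1.42.0 on recovered reads. Equal totals, a shift to the muscle fibre list and ratios to Cox4i1 were added after the data were seen. The fit was checked on simulated data.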

Additional observations from a re-analysis of the deposited data

How the results depend on the processing

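Limma called 127 genes, 46 without a variance trend, 124 by edgeR, 619 by DESeq2 and 35 to 425 when 1 mouse was left out; 425 is without Ogg1Tg replicate 3, where filtering genes on all 6 libraries gave 28. Of the members 0 were called, 1 after quantile normalization (Cox6a2), 2 by DESeq2 (Cox6a2 and Cox8b), and 0 to 1 with 1 mouse left out. With 1 mouse left out, the median log2 fold change ran from -0.47 to -0.08 over all members, -0.57 to -0.17 in complex II, -0.45 to -0.11 in complex III, -0.46 to -0.04 in complex IV and -0.44 to -0.06 in complex V. Shifting libraries to the muscle fibre list gave a median of -0.02 over all members, -0.10 in complex II, -0.033 in complex III, -0.01 in complex IV and 0.01 in complex V, and moved the median of all genes by 0.27; equal totals moved it by 0.24.

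Single genes changed sign as follows. The fibre shift adds the same 0.27 to every log2 fold change, so values just below 0 turn by construction; under it the log2 fold change was 0.0045 for Sdhc, 0.25 for Cox7a2, 0.21 for Atp5g2, 0.19 for Uqcrq, 0.093 for Atp5b and 0.014 for Atp5c1. With equal totals, also 1 factor per library, it was 0.22 for Cox7a2, 0.19 for Atp5g2, 0.17 for Uqcrq and 0.067 for Atp5b. Median-of-ratios scaling, again 1 factor per library, gave 0.030 for Cox7a2. For the settings that follow the cause was not tested. Quantile normalization gave 0.085 for Cox7a2, 0.020 for Atp5g2, 0.039 for Uqcrq, 0.090 for Atp5b and 0.016 for Atp5c1. For Cox7a2, Atp5g2 and Uqcrq, edgeR gave 0.075, 0.041 and 0.034 and DESeq2 0.054, 0.020 and 0.014. With 1 mouse left out the ranges were -0.017 to 0.22 for Cox6a1, -0.23 to 0.20 for Cox7a2, -0.066 to 0.15 for Cox7a2l, -0.17 to 0.17 for Atp5g2, -0.30 to 0.13 for Uqcrq and -0.35 to 0.033 for Atp5b. Of the single-gene values under alternatives, 567 kept direction and side of the threshold, 37 reversed and 4 passed only under the alternative.

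The differences in log2 ratio kept their sign in every alternative run: with 1 mouse left out, 0.29 to 0.62 for Cox6a2 to Cox6a1, -0.74 to -0.48 for Cox7a1 to Cox7a2 and -1.23 to -0.82 for Cox8b to Cox8a. The exact permutation p for Cox8b to Cox8a was 0.2 without any 1 Control mouse and 0.1 without any 1 Ogg1Tg mouse. In these runs it stayed at 0.1 for Cox7a1 to Cox7a2 and was 0.2 to 0.4 for Cox6a2 to Cox6a1. Replicate numbers are shared by the groups, and the labels state no pairing of the mice. Same-number deviations correlated at -0.05, -0.01 and 0.03, and different-number ones at -0.07 to 0.07. So few values cannot show whether the mice were paired. With the number as a replicate block, limma called 102 genes and 0 members; the medians stayed at -0.29 over all members and the paired exact permutation p was 0.5, 0.25 and 0.25 for the 3 ratios, of which 0.25 is the smallest 3 pairs allow.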
